A study of Mus musculus with 69 samples.

Results

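Oxidative phosphorylation rests on 5 protein complexes of the inner mitochondrial membrane, and the nuclear genes for their subunits were examined here in 69 mouse liver libraries. The set was chosen by name and by level. Symbols that begin with Nduf followed by a, b, c, s or v, the genes Sdha to Sdhd, and symbols that begin with Uqcr, with Cox and a digit of the structural subunits, or with Atp5 were taken. Names of pseudogenes were left out, and a mean of at least 5 TPM over all 69 libraries was required. TPM is a transcript level adjusted for transcript length and scaled to the same total in every library. Of 55367 gene symbols in the tables, 111 matched the pattern, 14 of these were pseudogene names and 10 were below the level. This left 87 genes. They comprised 37 genes of complex I, 4 of complex II, 8 of complex III, 13 of complex IV, 17 of complex V, and 8 assembly factors of complex I, whose names begin with Ndufaf. Without these, 79 genes encode subunits. Ndufa4 was placed with complex IV, where its product is found. Cox7a2l, a supercomplex factor related to subunit 7A of complex IV, was counted there too. The level limit used means over all groups and hours, so it did not use differences between groups. The gene family itself was chosen with earlier results of these data known. The lowest members inside the limit were Ndufaf5 at 5.38 TPM and Cox7a1 at 7.24 TPM, and the highest gene below it was Ndufa4l2 at 1.78 TPM. Ndufb1-ps at 57.0 TPM and Cox7c-ps1 at 6.77 TPM were above the limit and left out by name only. All 87 members passed the filter on low counts.

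Complex I (NADH dehydrogenase) and complex II (succinate dehydrogenase) pass electrons to coenzyme Q, complex III hands them to cytochrome c, and complex IV (cytochrome c oxidase) reduces oxygen. The protons pumped by complexes I, III and IV drive complex V, the ATP synthase. Most subunits are encoded in the nucleus and a few core subunits in the mitochondrial genome, so each complex except complex II is built from products of both genomes. In hepatocytes the chain oxidises the reduced cofactors that come from fatty acid oxidation and the tricarboxylic acid (TCA) cycle.

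Polyadenylated RNA was sequenced from livers of C57/Bl6J mice on a high-fat diet (HFD). The mice are described as hepatocyte-specific for JNK spliceoforms. JNK is a stress-activated protein kinase made from the genes Mapk8 and Mapk9. All groups share the genotype label J1 J2 lf/lf, the strain and the diet. The JNK7a group (22 libraries) is labelled CRE, the JNK7b group (23 libraries) FLPO and the control group (24 libraries) GFP, so that protein differs along with the group name. Nothing in the labels says how the proteins were delivered, whether a group name gives the spliceoform kept or the one lost, or at what clock hours the lights were on. Livers were collected at 8 clock hours, 3 h apart (2, 5, 8, 11, 14, 17, 20 and 23 h), with 2 to 4 libraries for each group and hour. The labels do not state that each library is a separate animal, and the p-values refer to the spread among libraries. In whole liver, fewer cells of a type and less RNA per cell cannot be told apart.

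The libraries held 26.8 M to 48.6 M (mega) estimated counts, with a median of 32.7 M. Mapk8 averaged 6.18 TPM in JNK7a livers, 7.89 TPM in JNK7b livers and 7.91 TPM in control livers, and Mapk9 averaged 15.2 TPM in JNK7a livers, 22.4 TPM in JNK7b livers and 19.5 TPM in control livers. Counts per gene do not separate the alternative exons, so the group labels could not be checked from them. Marker lists were summed in CPM, which are counts scaled to library size. Hepatocyte markers were abundant in all groups, with 69042 to 144188 CPM in JNK7a livers, 55322 to 93380 CPM in JNK7b livers and 72350 to 100304 CPM in control livers. Markers of T and NK cells summed to 1.81 to 12.3 CPM in JNK7a livers, 1.33 to 10.1 CPM in JNK7b livers and 0.734 to 5.19 CPM in control livers. Muscle markers were near 0, at most 0.400 CPM in JNK7a livers, 0.444 CPM in JNK7b livers and 0.172 CPM in control livers. JNK7b 5 h replicate 2 and control 8 h replicate 3 were taken as unlike their groups in other genes, whose values are not given here. Their summed levels of the 87 genes, 24199 TPM in JNK7b 5 h replicate 2 and 23817 TPM in control 8 h replicate 3, lay within the ranges of their groups. Counts of called members are given with and without both libraries.

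The promoters of 5 members whose values are described in depth below, 1 for each complex, are printed to show the sequences in front of these genes. They were chosen after the values were seen. Each is the 250 bases before the transcription start that RefSeq gives on the mouse assembly GRCm38.p6, read 5′ to 3′ on the strand of the gene. Capitals mark a match to 1 of 5 short motifs searched on both strands. Ndufa12 lies on the plus strand of chromosome 10 (window chr10:94198785-94199034), Sdhd on the minus strand of chromosome 9 (chr9:50603850-50604099), Uqcrc1 on the plus strand of chromosome 9 (chr9:108936398-108936647), Cox7a1 on the plus strand of chromosome 7 (chr7:30183921-30184170) and Atp5g3 on the minus strand of chromosome 2 (chr2:73911327-73911576).
Ndufa12: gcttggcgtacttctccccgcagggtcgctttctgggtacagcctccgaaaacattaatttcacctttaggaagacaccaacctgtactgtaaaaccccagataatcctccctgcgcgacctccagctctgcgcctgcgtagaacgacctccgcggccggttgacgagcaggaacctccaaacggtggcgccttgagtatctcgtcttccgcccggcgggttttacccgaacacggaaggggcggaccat
Sdhd: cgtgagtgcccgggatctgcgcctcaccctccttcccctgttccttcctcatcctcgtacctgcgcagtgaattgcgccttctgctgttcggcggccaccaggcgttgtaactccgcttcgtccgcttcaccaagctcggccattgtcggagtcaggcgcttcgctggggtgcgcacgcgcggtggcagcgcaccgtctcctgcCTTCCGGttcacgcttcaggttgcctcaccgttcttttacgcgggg
Uqcrc1: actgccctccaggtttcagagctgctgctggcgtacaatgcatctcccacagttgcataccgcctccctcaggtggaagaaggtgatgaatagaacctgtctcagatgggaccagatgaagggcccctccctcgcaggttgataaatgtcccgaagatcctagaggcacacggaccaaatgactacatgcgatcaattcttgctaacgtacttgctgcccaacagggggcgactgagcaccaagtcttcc
Cox7a1: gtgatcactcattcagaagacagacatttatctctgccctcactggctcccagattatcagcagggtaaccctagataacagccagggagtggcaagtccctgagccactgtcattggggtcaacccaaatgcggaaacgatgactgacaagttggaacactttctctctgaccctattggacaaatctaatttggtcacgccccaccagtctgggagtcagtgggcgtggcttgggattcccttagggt
Atp5g3: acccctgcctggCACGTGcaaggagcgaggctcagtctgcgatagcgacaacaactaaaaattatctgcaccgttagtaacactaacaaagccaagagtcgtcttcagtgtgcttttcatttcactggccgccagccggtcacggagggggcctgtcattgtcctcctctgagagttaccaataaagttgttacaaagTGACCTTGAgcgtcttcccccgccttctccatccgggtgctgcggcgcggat

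The Sdhd window held the ETS core on its other strand, and the Atp5g3 window held the E-box and, on its other strand, the ERR motif. The windows of Ndufa12, Uqcrc1 and Cox7a1 held none of the 5 sets of letters, which says only that these letters are not in these windows. Of the 87 members, 73 were matched to a RefSeq promoter. The NRF1 core GCATGCGC was present before 9 of them (12.3%), against 2.56% of all 27025 genes with a promoter. NRF1 is a transcription factor long linked to respiratory genes. The ETS core CCGGAAG, bound by GABPA and other ETS factors, was present before 14 members (19.2%), against 7.83% of all genes. The E-box CACGTG, the element of the clock activators, was present before 6 members (8.22%), against 6.86% of all genes. The ERR motif TCAAGGTCA was present before 1 (1.37%), against 0.422%, and the YY1 core AAGATGGC before 1 (1.37%), against 1.83%. None of the 5 sets of letters contains another, and a match is a description of the sequence and not of binding.

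The level of a typical member depended on the complex. The median member had a mean of 149 TPM in complex I (33.1 to 403 TPM), 210 TPM in complex II (194 to 234 TPM), 352 TPM in complex III (175 to 801 TPM), 420 TPM in complex IV (7.24 to 934 TPM), 335 TPM in complex V (17.8 to 1083 TPM) and 22.1 TPM among the assembly factors (5.38 to 27.6 TPM). The most expressed members were Ndufa3 in complex I, Sdha, the flavoprotein that oxidises succinate, in complex II, Uqcrq in complex III, Cox6a1, the liver isoform of its subunit, in complex IV, Atp5b, the catalytic beta subunit, in complex V, and Ndufaf1 among the assembly factors. Among tissue isoforms, the forms known from muscle, testis or lung were low: Cox4i2 averaged 0.159 TPM, Cox6a2 0.0968 TPM, Cox6b2 0.674 TPM, Cox8b 0.132 TPM and Cox8c was listed at 0.

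Summed over the 87 genes, the lowest, median and highest library were 19963, 21698 and 24784 TPM in JNK7a livers, 18941, 23708 and 26422 TPM in JNK7b livers and 21230, 24767 and 26755 TPM in control livers. The groups overlapped, with the JNK7a libraries placed lowest, the control libraries highest and the JNK7b libraries between them on average. The sum averaged 21753 ± 1295 TPM in JNK7a livers (SD, n = 22), 23228 ± 1872 TPM in JNK7b livers (SD, n = 23) and 24551 ± 1494 TPM in control livers (SD, n = 24). This was 2.18% of all TPM in JNK7a livers, 2.32% in JNK7b livers and 2.46% in control livers. The mean sum was 11.4% lower in JNK7a livers than in control livers, and the same difference was 11.1% for complex I, 12.2% for complex II, 12.1% for complex III, 11.4% for complex IV, 11.4% for complex V and 6.82% for the assembly factors. JNK7b livers were below control livers by 5.39% for the whole set, with 2.10% for complex II and 4.79% to 6.36% for the other complexes and the assembly factors. The proportions between complexes moved little: complex I made up 26.9% of the sum in JNK7a livers and complex V 30.9%, against 26.9% and 30.9% in control livers. Subunits encoded by the mitochondrial genome summed to 125383 TPM in JNK7a livers, 131876 TPM in JNK7b livers and 136434 TPM in control livers. These sums describe the libraries and carry no test.

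**Figure D1:**
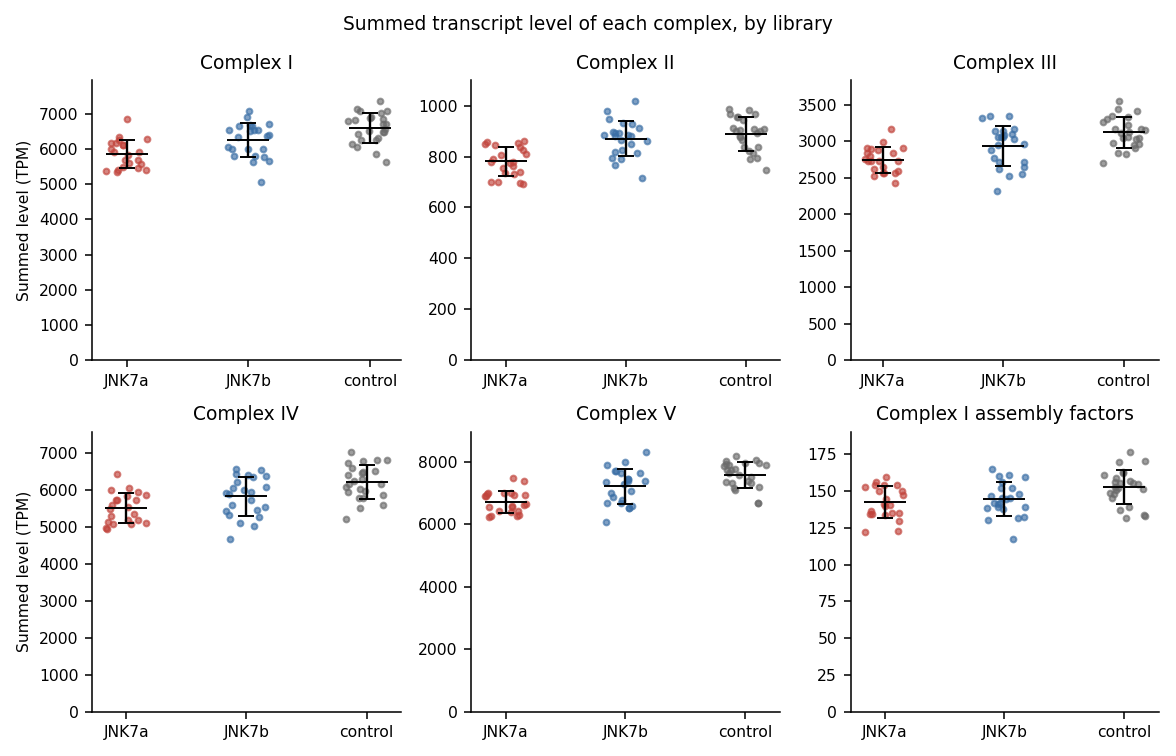
Summed TPM of the members of each complex and of the complex I assembly factors, 1 panel each, for JNK7a, JNK7b and control livers from left to right; points are libraries, lines are group means and bars are SDs, on axes that start at 0. The groups overlap in every panel, with JNK7a lowest on average, for example 5861 TPM in JNK7a livers, 6244 TPM in JNK7b livers and 6594 TPM in control livers for complex I.

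JNK7a livers were compared with control livers over the 8 clock hours, with equal weight for each hour. Of the 87 members, 37 were lower in JNK7a livers and 0 higher, at an adjusted p below 0.05. The test was the quasi-likelihood F-test of edgeR, adjusted by Benjamini-Hochberg over 14398 genes. The same test called 1593 of all genes lower, 11.1%, and 1391 higher, 9.66%. At an unadjusted p below 0.05, 53 members were lower and 0 higher, DESeq2 called 39 lower and 0 higher, and limma voom 35 lower and 0 higher. Without the libraries unlike their group the count was 38 lower. The median fold change of the 87 members was -0.10 on the log2 scale, against 0.00 for all genes, and 80 members had a negative value. The changes were small: called members fell by 0.07 to 0.56 on the log2 scale. By complex, 16 of 37 fell in complex I, 3 of 4 in complex II, 6 of 8 in complex III, 7 of 13 in complex IV, 5 of 17 in complex V and 0 of the 8 assembly factors, of which 2 were at an unadjusted p below 0.05. In mean TPM all 87 members were lower in JNK7a livers, and the library ranges of the groups overlapped for all 87. On the TPM scale genes as a whole were shifted down in JNK7a livers: limma on log2(TPM + 1) called 16.8% of all genes lower and 4.9% higher. It called 72 members lower, and the median member was -0.17 on that scale and -0.13 relative to the median of all genes, against -0.10 relative to it in the count fit. The lower sums in TPM given above include this shift.

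In complex I, Ndufa12, an accessory subunit of the electron input module, had 93.2 TPM in its lowest, 116 TPM in its median and 133 TPM in its highest JNK7a library, against 116, 143 and 156 TPM in control livers. All 22 JNK7a libraries lay below the control median, and the ranges overlapped only between the upper JNK7a and the lower control libraries. It averaged 114 ± 12.3 TPM in JNK7a livers (SD, n = 22) and 140 ± 12.7 TPM in control livers (SD, n = 24). The fold change was -0.23 ± 0.04 on the log2 scale (SE, edgeR adjusted p = 4.3e-05), with the same sign at 8 of 8 hours. Ndufa10, an accessory subunit of the membrane arm, had 82.1, 108 and 120 TPM as lowest, median and highest value in JNK7a livers, against 94.9, 128 and 161 TPM in control livers (log2 fold change -0.17 ± 0.04, edgeR adjusted p = 0.000334). Ndufs1, the iron-sulphur subunit that receives electrons in the input module, had 46.5, 62.6 and 77.9 TPM in JNK7a livers, against 52.3, 75.2 and 93.4 TPM in control livers (log2 fold change -0.14 ± 0.03, edgeR adjusted p = 0.000603). The ranges overlapped for both genes, more widely for Ndufs1. Other members of complex I that fell were Ndufa2, Ndufa5, Ndufa7, Ndufa8, Ndufab1, Ndufb2, Ndufb9, Ndufc2, Ndufs5, Ndufs6, Ndufv2 and Ndufv3, a list that is not complete. Of these, Ndufa2, Ndufa7, Ndufa8 and Ndufb9 lost the call in some of the 69 fits without a library, Ndufa2 in 26 (adjusted p up to 0.1496, without control 2 h replicate 1). Ndufa3, the most expressed member of complex I, averaged 370 TPM in JNK7a livers and 423 TPM in control livers and did not pass (edgeR adjusted p = 0.0749).

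In complex II, Sdha had 166, 211 and 243 TPM as lowest, median and highest value in JNK7a livers, against 179, 251 and 284 TPM in control livers. All 22 JNK7a libraries lay below the control median, within overlapping ranges. The fold change of Sdha was -0.15 ± 0.03 on the log2 scale (SE, edgeR adjusted p = 1.7e-05), the smallest p of the set in this comparison. Of the membrane anchors, Sdhc averaged 187 TPM in JNK7a livers and 213 TPM in control livers (log2 fold change -0.11 ± 0.04, edgeR adjusted p = 0.0334). Sdhd averaged 175 TPM in JNK7a livers and 195 TPM in control livers (log2 fold change -0.07 ± 0.02, edgeR adjusted p = 0.0345). Both calls were lost when single libraries were left out, Sdhc in 14 and Sdhd in 16 of 69 such fits. The largest adjusted p was 0.0987 for Sdhc and 0.0802 for Sdhd, each without control 2 h replicate 1. Sdhb, the iron-sulphur subunit, averaged 206 TPM in JNK7a livers and 233 TPM in control livers and did not pass (edgeR adjusted p = 0.0979).

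In complex III, Uqcr10, a small accessory subunit, had 295, 337 and 372 TPM as lowest, median and highest value in JNK7a livers, against 339, 393 and 470 TPM in control livers, with 22 of 22 JNK7a libraries below the control median. Uqcr10 fell by 0.17 ± 0.04 on the log2 scale (edgeR adjusted p = 0.00104). The core protein Uqcrc1 had 154, 177 and 193 TPM in JNK7a livers, against 172, 205 and 219 TPM in control livers. The core protein Uqcrc2 had 144, 163 and 188 TPM in JNK7a livers, against 158, 185 and 216 TPM in control livers. The ranges overlapped for both core proteins, with 22 of 22 JNK7a libraries below the control median for Uqcrc1 and 21 of 22 for Uqcrc2. Their log2 fold changes were -0.13 ± 0.03 for Uqcrc1 (edgeR adjusted p = 0.0015) and -0.12 ± 0.03 for Uqcrc2 (edgeR adjusted p = 0.00116). Uqcr11 averaged 414 TPM in JNK7a livers and 484 TPM in control livers (log2 fold change -0.17 ± 0.05, edgeR adjusted p = 0.0141), a call lost without control 2 h replicate 1 (adjusted p = 0.0759). Uqcrfs1, the Rieske iron-sulphur protein, also fell. Uqcrq averaged 756 TPM in JNK7a livers and 863 TPM in control livers and fell (edgeR adjusted p = 0.0401), a call lost in 18 of 69 fits without a library, with 0.159 without control 2 h replicate 1 as the largest adjusted p. The hinge protein gene Uqcrh (395 TPM in JNK7a livers and 423 TPM in control livers) and Uqcrb did not pass.

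In complex IV, Cox6b1, the ubiquitous isoform of its subunit, had 338, 385 and 428 TPM as lowest, median and highest value in JNK7a livers, against 398, 459 and 520 TPM in control livers. All 22 JNK7a libraries were below the control median, with a short overlap of the ranges. Cox6b1 fell by 0.17 ± 0.04 on the log2 scale (edgeR adjusted p = 0.000193). Cox7a1, known as the muscle isoform of its subunit, was the lowest member of the complex and had the largest fold change of the set in this comparison. Its lowest, median and highest values were 1.77, 4.51 and 11.6 TPM in JNK7a livers, against 2.45, 6.88 and 15.0 TPM in control livers (log2 fold change -0.56 ± 0.16, edgeR adjusted p = 0.006). The ranges overlapped over most of their length, with 17 of 22 JNK7a libraries below the control median. The call was lost with no filter on low counts. Its liver partner Cox7a2 averaged 256 TPM in JNK7a livers and 282 TPM in control livers and did not pass. Cox7a1 made up 1.90% of Cox7a1 and Cox7a2 together in JNK7a livers and 2.62% in control livers. The muscle markers measured near 0 in all groups, as given above. A list of 5 adipocyte markers summed to 0 to 0.702 CPM in JNK7a livers, 0.824 to 48.2 CPM in JNK7b livers and 0.0366 to 15.5 CPM in control livers. Nearly all of this was Cidea, a lipid droplet gene and the only 1 of the 5 that passed the filter on low counts, with a mean of 0.276 TPM in JNK7a livers, 25.1 TPM in JNK7b livers and 7.18 TPM in control livers. Of the other markers, 1 was at 0 in every JNK7a library and 2 in every JNK7b library, and the part of such cells in the Cox7a1 values was not tested. Cox8a averaged 533 ± 46.4 TPM in JNK7a livers and 621 ± 58.9 TPM in control livers (SD; log2 fold change -0.16 ± 0.04, edgeR adjusted p = 0.00677). Cox7c averaged 543 TPM in JNK7a livers and 627 TPM in control livers (log2 fold change -0.14 ± 0.05, edgeR adjusted p = 0.0171). Cox4i1, the ubiquitous regulatory subunit, averaged 640 TPM in JNK7a livers and 729 TPM in control livers (log2 fold change -0.12 ± 0.04, edgeR adjusted p = 0.0202). The Cox4i1 call was lost in 2 of 69 fits without a library (adjusted p up to 0.0855, without control 2 h replicate 1). Cox6c, whose call was lost in 7 of 69 fits without a library (up to 0.0857, without control 2 h replicate 1), and Cox7b fell as well. Cox6a1, with 884 TPM in JNK7a livers and 977 TPM in control livers, did not pass (edgeR adjusted p = 0.182).

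In complex V, Atp5g3, 1 of 3 genes for the c subunit of the rotor ring, had 655, 729 and 808 TPM as lowest, median and highest value in JNK7a livers, against 755, 876 and 1000 TPM in control livers. All 22 JNK7a libraries were below the control median, and the ranges overlapped between 755 and 808 TPM. Its fold change was -0.19 ± 0.04 on the log2 scale (edgeR adjusted p = 7.2e-05). The other c subunit genes encode the same mature protein and did not pass: Atp5g1 averaged 372 TPM in JNK7a livers and 398 TPM in control livers, and Atp5g2 17.3 TPM in JNK7a livers and 18.7 TPM in control livers. Atp5g3 made up 65.1% of the family in JNK7a livers, 66.4% in JNK7b livers and 67.6% in control livers, with an SD of 1.77 percentage points in JNK7a livers, 1.72 in JNK7b livers and 1.89 in control livers. Atp5a1, the alpha subunit of the catalytic head, had 351, 449 and 519 TPM in JNK7a livers, against 401, 524 and 608 TPM in control livers, with 22 of 22 JNK7a libraries below the control median. The ranges overlapped, and the log2 fold change of Atp5a1 was -0.13 ± 0.03 (edgeR adjusted p = 0.000126). Atp5d, the delta subunit of the central stalk, averaged 310 TPM in JNK7a livers and 358 TPM in control livers (log2 fold change -0.13 ± 0.04, edgeR adjusted p = 0.00439). Atp5k, the e subunit of the membrane part, averaged 312 TPM in JNK7a livers and 364 TPM in control livers (log2 fold change -0.15 ± 0.05, edgeR adjusted p = 0.0124). Atp5o fell with an adjusted p of 0.0474 in edgeR, a call lost in 36 of 69 fits without a library (up to 0.135, without control 2 h replicate 1). The catalytic beta subunit Atp5b averaged 996 TPM in JNK7a livers and 1121 TPM in control livers and did not pass (edgeR adjusted p = 0.056).

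**Figure D2:**
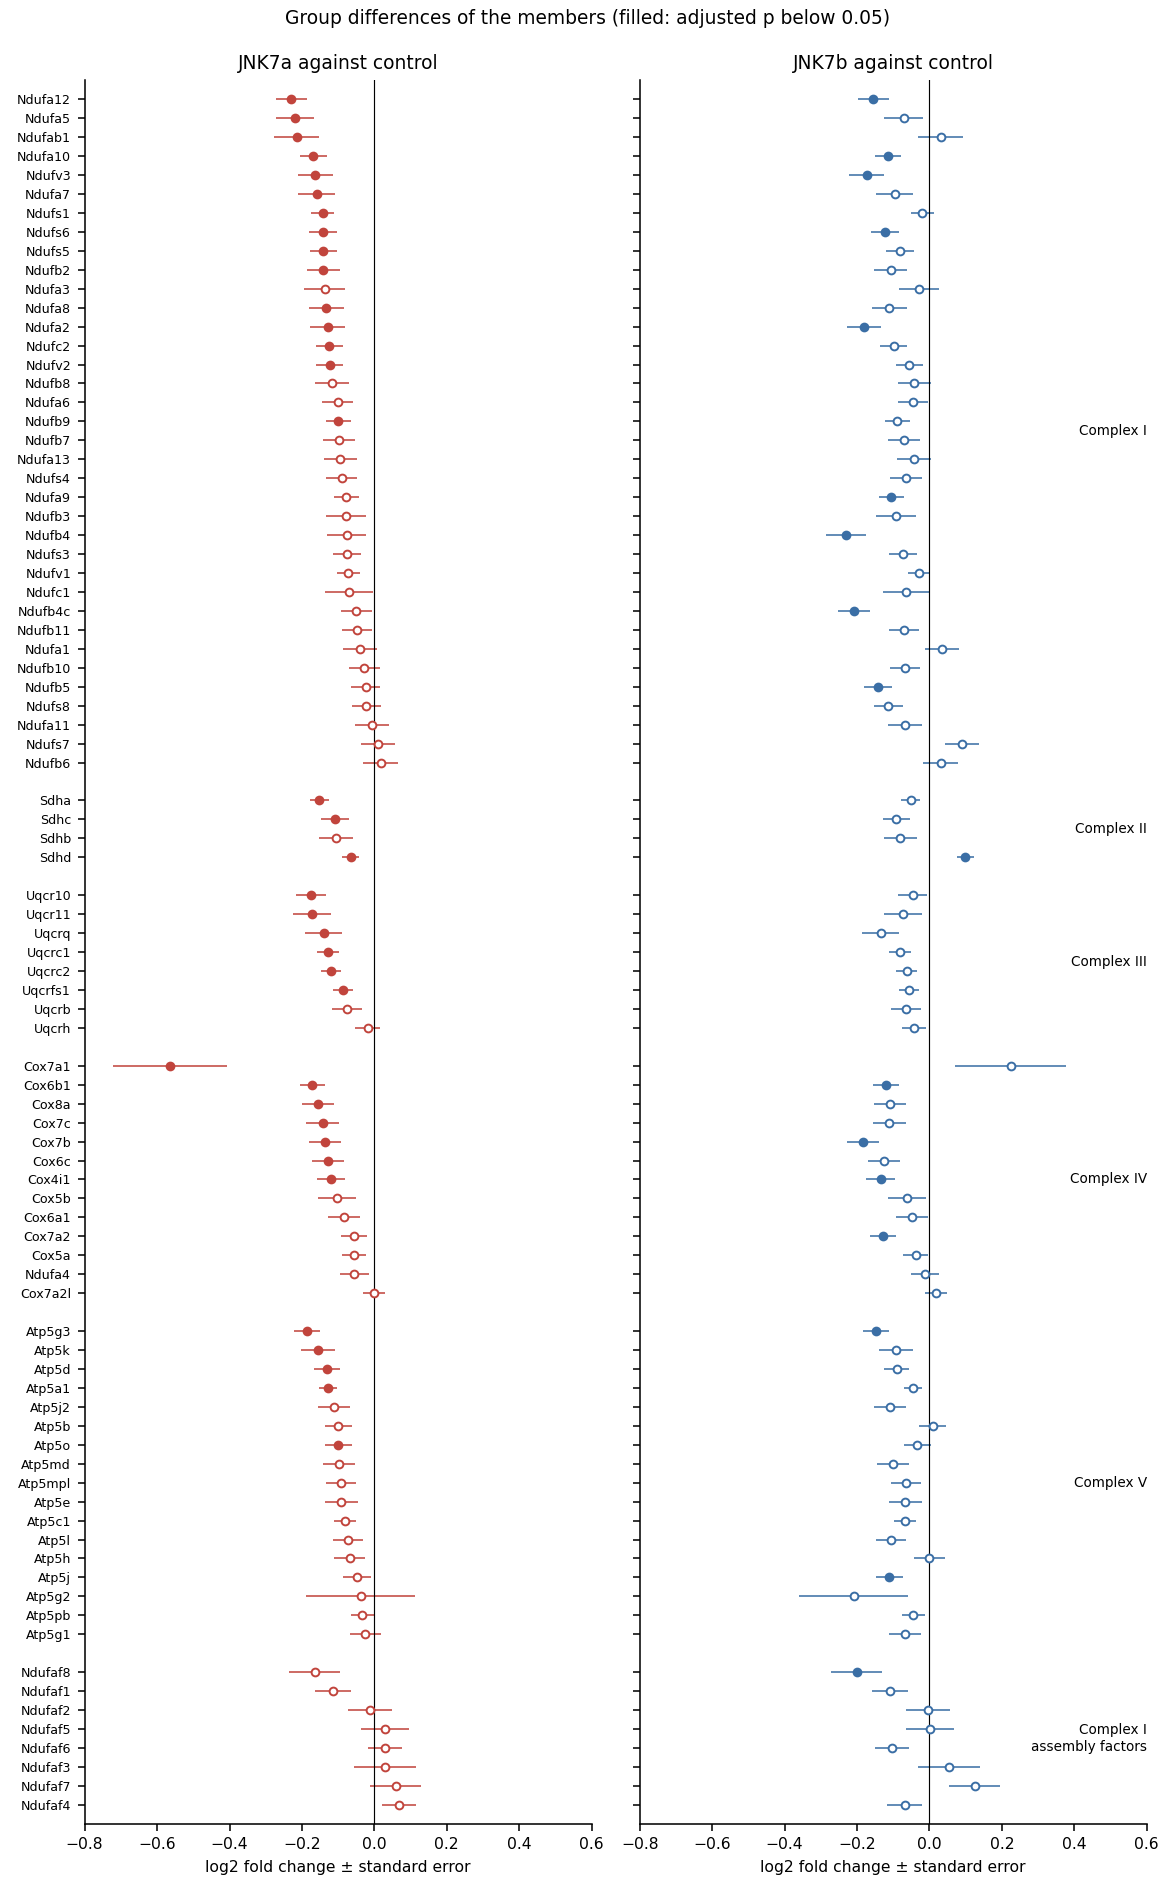
Log2 fold change of 86 of the 87 members with its standard error, grouped by complex, for JNK7a against control and for JNK7b against control; filled points have an edgeR adjusted p below 0.05. The 1 member not shown is called in JNK7a livers and is not reported singly here. In JNK7a livers 36 of the plotted members are called, all below 0, and in JNK7b livers 16 are called below 0 and Sdhd above 0.

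Genes next to the chain were counted from lists for the same comparison. Beside these counts, 11.1% of all genes were lower in JNK7a livers and 9.66% higher. Of 18 genes of the TCA cycle and pyruvate dehydrogenase, 11 fell in JNK7a livers and 0 rose, with a median of -0.13 on the log2 scale. Idh2, the NADP-linked isocitrate dehydrogenase, averaged 45.1 TPM in JNK7a livers and 74.2 TPM in control livers (log2 fold change -0.61 ± 0.07, edgeR adjusted p = 4.8e-09). Of 19 genes of electron carriers and coenzyme Q synthesis, 4 fell. Among them, Etfdh, which passes electrons from fatty acid oxidation to coenzyme Q, averaged 147 TPM in JNK7a livers and 186 TPM in control livers (log2 fold change -0.28 ± 0.04, edgeR adjusted p = 3.2e-08). Of 13 mitochondrially encoded subunits only mt-Nd6 fell, with 3528 TPM in JNK7a livers and 4115 TPM in control livers (log2 fold change -0.15 ± 0.05, edgeR adjusted p = 0.0366). Of 39 further assembly factors tested, 5 fell and 1 rose. Sco2, which brings copper to complex IV, averaged 31.8 TPM in JNK7a livers and 42.3 TPM in control livers (log2 fold change -0.43 ± 0.08, edgeR adjusted p = 3.2e-05). Of 20 regulators of mitochondrial biogenesis, Esrrg (log2 fold change -1.27 ± 0.18, edgeR adjusted p = 4.1e-07) and Ppara (log2 fold change -0.35 ± 0.07, edgeR adjusted p = 7.5e-05), both nuclear receptors of oxidative genes, fell. Nrf1 and Pprc1 rose. Thus 10% of these regulators fell and 10% rose, near the shares of all genes. Of 78 mitochondrial ribosomal protein genes 3 fell (3.85%, below the share of all genes) and 0 rose. Of 86 cytosolic ribosomal protein genes 0 fell and 41 rose (47.7%). Markers of other cells moved with the group. Of 6 endothelial markers 1 fell, with sums of 64.6 to 216 CPM in JNK7a livers and 90.1 to 182 CPM in control livers. In the other direction, 6 of 7 T and NK cell markers and 2 of 6 B and plasma cell markers rose in JNK7a livers, as did 1 of 7 Kupffer cell and macrophage markers and 2 of 7 hepatocyte markers. The B and plasma cell list summed to 7.41 to 66.5 CPM in JNK7a livers and 1.53 to 60.8 CPM in control livers, and the Kupffer cell list to 71.2 to 421 CPM in JNK7a livers and 86.99 to 300.2 CPM in control livers. No marker of these 5 lists was at 0 in all libraries of a group. Their part in the fall of the subunits was not tested.

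JNK7b livers were compared with the same control libraries, so the comparison shares them with the one above. Of the 87 members, 16 were lower in JNK7b livers and 1 was higher, against 986 of all 14398 genes lower, 6.85%, and 949 higher, 6.59%. At an unadjusted p below 0.05, 37 were lower and 1 higher, and without the libraries unlike their group 12 were lower and 1 higher. The median fold change of the members was -0.07 on the log2 scale, against -0.01 for all genes and -0.05 for all genes above 100 TPM, and 76 members had a negative value. In complex I 9 of 37 members fell, in complex III 0 of 8, with 4 at an unadjusted p below 0.05, in complex IV 4 of 13, in complex V 2 of 17 and among the assembly factors 1 of 8. In complex II 0 of 4 fell, with 1 lower at an unadjusted p below 0.05, and Sdhd rose. The library ranges of the groups overlapped for all 87 members.

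In complex I, Ndufb4c had 104, 174 and 212 TPM as lowest, median and highest value in JNK7b livers, against 169, 201 and 236 TPM in control livers. Its parent gene Ndufb4, for an accessory subunit of the membrane arm, had 23.0, 29.9 and 40.5 TPM in JNK7b livers, against 28.5, 35.6 and 43.7 TPM in control livers. The lowest JNK7b libraries lay below the control ranges, and 20 of 23 JNK7b libraries were below the control median for Ndufb4c and 18 of 23 for Ndufb4. The log2 fold changes were -0.21 ± 0.04 for Ndufb4c (edgeR adjusted p = 0.000441) and -0.23 ± 0.05 for Ndufb4 (edgeR adjusted p = 0.00229). Ndufb4c, on chromosome 15 from 73809507 to 73809896 in mm10, is a near-identical copy of Ndufb4, which lies on chromosome 16. The split of reads between them by the authors' quantification is uncertain. Together they summed to 201 TPM in JNK7b livers and 236 TPM in control livers, and Ndufb4c made up 84.8% of the sum in JNK7b livers and 84.7% in control livers. Ndufa12 had 91.0, 126 and 147 TPM in JNK7b livers, against 116, 143 and 156 TPM in control livers, with 22 of 23 JNK7b libraries below the control median in overlapping ranges (log2 fold change -0.16 ± 0.04, edgeR adjusted p = 0.00821). Ndufa2, an accessory subunit of the input module, averaged 169 TPM in JNK7b livers and 194 TPM in control livers (log2 fold change -0.18 ± 0.05, edgeR adjusted p = 0.00578), a call lost without clock hour 11. Ndufa9, Ndufa10, Ndufb5, Ndufs6 and Ndufv3 fell as well. Of the 17 calls of the whole set in this comparison, 11 held in all 69 fits without a library and 5 under every alternative and omission run.

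Sdhd, a membrane anchor of complex II, was the only member higher in JNK7b livers. It had 171, 211 and 258 TPM as lowest, median and highest value in JNK7b livers, against 154, 192 and 235 TPM in control livers, and the groups overlapped widely, with 8 of 23 JNK7b libraries below the control median. Its fold change was 0.10 ± 0.02 on the log2 scale (edgeR adjusted p = 0.00175), with the same sign at 5 of 8 hours, and the call was lost with no filter and on the TPM scale. In complex IV, Cox7b had 123, 163 and 208 TPM in JNK7b livers, against 150, 187 and 223 TPM in control livers (log2 fold change -0.18 ± 0.04, edgeR adjusted p = 0.00242), and 19 of 23 JNK7b libraries were below the control median. Cox7a2 averaged 256 TPM in JNK7b livers and 282 TPM in control livers (edgeR adjusted p = 0.0114), and Cox4i1 657 TPM in JNK7b livers and 729 TPM in control livers (edgeR adjusted p = 0.013). Cox6b1 averaged 419 TPM in JNK7b livers and 455 TPM in control livers (edgeR adjusted p = 0.0143). These 3 fell by 0.12 to 0.14 on the log2 scale, and each call was lost without clock hour 8, 11 or 20. The Cox4i1 call was also lost without control 2 h replicate 1 (adjusted p = 0.0608). Cox7a1 averaged 8.96 TPM in JNK7b livers and 7.66 TPM in control livers and did not pass. In complex V, Atp5g3 had 674, 787 and 916 TPM in JNK7b livers, against 755, 876 and 1000 TPM in control livers, with 21 of 23 JNK7b libraries below the control median (log2 fold change -0.15 ± 0.04, edgeR adjusted p = 0.00268). Atp5j, the F6 subunit of the peripheral stalk, averaged 309 TPM in JNK7b livers and 335 TPM in control livers, and the assembly factor gene Ndufaf8 averaged 22.1 TPM in JNK7b livers and 25.7 TPM in control livers. Their calls (edgeR adjusted p = 0.0416 for Atp5j and 0.0471 for Ndufaf8) were lost in 29 of 69 fits without a library for Atp5j and in 42 for Ndufaf8. The largest adjusted p was 0.111 for Atp5j without control 2 h replicate 1 and 0.0934 for Ndufaf8 without JNK7b 11 h replicate 2.

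For the lists around the chain, 6.85% of all genes were lower in JNK7b livers and 6.59% higher. Of 18 genes of the TCA cycle and pyruvate dehydrogenase 1 fell (Suclg2, 5.56%), near the share of all genes. Of 13 mitochondrially encoded subunits 2 fell, mt-Nd5 and mt-Nd6 (15.4%). The gene mt-Nd6 averaged 3532 TPM in JNK7b livers and 4115 TPM in control livers (log2 fold change -0.24 ± 0.05, edgeR adjusted p = 0.00135). Of the mitochondrial ribosomal protein genes, 11 of 78 fell (14.1%) and 0 rose, and of the cytosolic ones 2 of 86 fell (2.33%) and 1 rose. Of 20 regulators of mitochondrial biogenesis 2 rose (10%) and 0 fell, while 13 had a negative value and the median was -0.04 on the log2 scale. Of the risen genes, the coactivator Ppargc1a averaged 1.89 TPM in JNK7b livers and 1.40 TPM in control livers (log2 fold change 0.36 ± 0.11, edgeR adjusted p = 0.0134). Of 39 further assembly factors 5 fell and 1 rose, and of 19 genes of carriers and coenzyme Q synthesis 3 fell and 1 rose. Markers moved here as well: 4 of 7 hepatocyte markers fell in JNK7b livers and 3 of 7 T and NK cell markers, 1 of 6 B and plasma cell markers and 1 of 7 Kupffer cell markers rose. Of 5 red blood cell markers 1 fell, with sums of 224 to 730 CPM in JNK7b livers and 227 to 610 CPM in control livers. The lipid droplet gene Cidea, the only 1 of the 5 adipocyte markers that could be tested, rose (log2 fold change 2.15, edgeR adjusted p = 7.0e-05). Their part in the subunit values was not tested.

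JNK7b and JNK7a livers were also compared directly, which tests whether the groups differ in a member. Of the 87 members, 10 were higher and 5 lower in JNK7b livers, against 1569 of all 14398 genes higher, 10.9%, and 1638 lower, 11.4%. At an unadjusted p below 0.05, 10 were higher and 6 lower, and without the libraries unlike their group 10 were higher and 3 lower. This split depended on the scaling: limma on log2(TPM + 1) called 35 members higher and 0 lower, against 14.4% of all genes higher and 4.94% lower. The median member relative to the median of all genes was 0.05 on that scale and 0.03 in the count fit. In mean TPM 9 members were lower in JNK7b livers than in JNK7a livers and 78 higher, and the ranges overlapped for all 87.

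Sdhd differed most clearly, with 171, 211 and 258 TPM as lowest, median and highest value in JNK7b livers, against 151, 173 and 205 TPM in JNK7a livers. Only 1 of 23 JNK7b libraries lay below the JNK7a median, and the upper JNK7b libraries were above the whole JNK7a range. Its fold change was 0.16 ± 0.02 on the log2 scale (edgeR adjusted p = 3.3e-07), with the same sign at 8 of 8 hours. Cox7a1 had 4.72, 9.25 and 17.5 TPM in JNK7b livers, against 1.77, 4.51 and 11.6 TPM in JNK7a livers. No JNK7b library of Cox7a1 lay below the JNK7a median, though the ranges overlapped. Its fold change was 0.79 ± 0.16 on the log2 scale (edgeR adjusted p = 0.000148). Sdha averaged 240 TPM in JNK7b livers and 212 TPM in JNK7a livers (log2 fold change 0.10 ± 0.03, edgeR adjusted p = 0.00513). Ndufab1, the mitochondrial acyl carrier protein, which also serves lipoic acid synthesis, averaged 195 ± 33.0 TPM in JNK7b livers and 154 ± 20.4 TPM in JNK7a livers (SD; log2 fold change 0.25 ± 0.06, edgeR adjusted p = 0.00272). Ndufs1, Ndufa5, Uqcr10, Atp5a1 and Atp5b were also higher in JNK7b livers, by 0.08 to 0.15 on the log2 scale. Of these, Ndufa5 was lost in 22 of 69 fits without a library (adjusted p up to 0.0689, without JNK7a 2 h replicate 2) and Atp5b in 14 (up to 0.0783, without JNK7a 2 h replicate 1). Ndufb4c was lower, with an average of 170 TPM in JNK7b livers and 185 TPM in JNK7a livers (log2 fold change -0.16 ± 0.04, edgeR adjusted p = 0.00609), and so were Ndufb4, Ndufb5, Ndufaf4 and Ndufaf6, while limma on log2(TPM + 1) called none of these 5. The calls of Ndufb4 (up to 0.101, without JNK7b 5 h replicate 1) and Ndufaf6 (up to 0.164, without JNK7b 14 h replicate 1) were lost in 28 and 24 of the 69 fits without a library, that of Ndufaf4 in 12 (up to 0.0847, without JNK7b 11 h replicate 1) and that of Ndufb5 in 4 (up to 0.0644, without JNK7a 20 h replicate 2). Of the TCA cycle and pyruvate dehydrogenase list 10 of 18 rose in JNK7b livers, against 10.9% of all genes. Of the cytosolic ribosomal protein genes 48 of 86 fell, against 11.4% of all genes. Of 19 genes of electron carriers and coenzyme Q synthesis 3 rose (15.8%) and 2 fell (10.5%), and 11 had a negative value. Among those that rose, Cycs, cytochrome c itself, averaged 41.3 TPM in JNK7b livers and 34.0 TPM in JNK7a livers (log2 fold change 0.18 ± 0.04, edgeR adjusted p = 0.0011). Hepatocyte markers were lower in JNK7b livers for 5 of 7 genes. Higher were 1 of 6 endothelial markers and the lipid droplet gene Cidea, the only 1 of the 5 adipocyte markers tested. The part of these markers in the values of the members was not tested.

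Hour by hour, the median member was lower in JNK7a livers than in control livers at all 8 hours, with log2 fold changes of -0.23 at 2 h, -0.13 at 5 h, -0.08 at 8 h, -0.07 at 11 h, -0.09 at 14 h and -0.06 at 17, 20 and 23 h. With 2 to 4 libraries for each group and hour, few single-hour values passed: edgeR called Sdha lower at 2 h (log2 fold change -0.31 ± 0.09, adjusted p = 0.0478), against 216 of 14398 genes lower, 1.5%. It called Sdhd lower at 14 h (log2 fold change -0.22 ± 0.06, adjusted p = 0.0387), against 249 genes lower, 1.73%. Both calls held without the libraries unlike their group. In that fit Ndufa10 was also called lower at 5 h, against 402 of 14378 genes lower, 2.8%. No member depended on the hour in this comparison in the joint test of group by clock hour, where edgeR, DESeq2 and limma voom each called 0 members, 0 were at an unadjusted p below 0.05 in edgeR and 1 of all 14398 genes was called, 0.00695%.

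In JNK7b livers the median member was below control livers at 7 of 8 hours. The median log2 fold change was -0.06 at 2 h, 0.10 at 5 h, -0.26 at 8 h, -0.13 at 11 h, -0.02 at 14 h, -0.09 at 17 h, -0.12 at 20 h and -0.03 at 23 h. At 5 h, 11 of 87 members were below control livers, and at 8 h 81 of 87. At 8 h edgeR called 9 members lower, against 275 of 14398 genes lower, 1.91%: Ndufs8, Ndufv3, Ndufb4, Ndufb4c, Ndufb7, Cox4i1, Cox7b, Atp5g1 and Atp5j, by 0.36 to 0.68 on the log2 scale. Without JNK7b 5 h replicate 2 and control 8 h replicate 3 it called 6 lower at 8 h, against 0.981% of all genes, namely Ndufs8, Ndufv3, Ndufb4, Ndufb4c and Cox4i1 of the 9 and Ndufa12. At 20 h it called 4 lower, Ndufs6, Ndufa8, Ndufb4c and Ndufc2, against 297 genes lower, 2.06%, and 3 without those libraries. At the other hours it called 0 members lower. Of all genes it called 207 lower at 11 h, 1.44%, and 364 at 23 h, 2.53%, but 0 at 2, 5 and 17 h and 15 at 14 h. JNK7b livers were above JNK7a livers in median at 2 h (0.17) and 5 h (0.23) and below them at 8 h (-0.16). The joint test of group by clock hour called 2 members, Ndufb4c (edgeR adjusted p = 0.0449) and Ndufaf6 (edgeR adjusted p = 0.00771), for JNK7b against control, where 248 of all genes were called, 1.72%. It called the same 2 for JNK7b against JNK7a (edgeR adjusted p = 0.0232 for Ndufb4c and 0.0301 for Ndufaf6), where 315 were called, 2.19%. At an unadjusted p below 0.05 there were 8 members for JNK7b against control and 20 for JNK7b against JNK7a. Without the libraries unlike their group both comparisons had 0 called members.

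**Figure D3:**
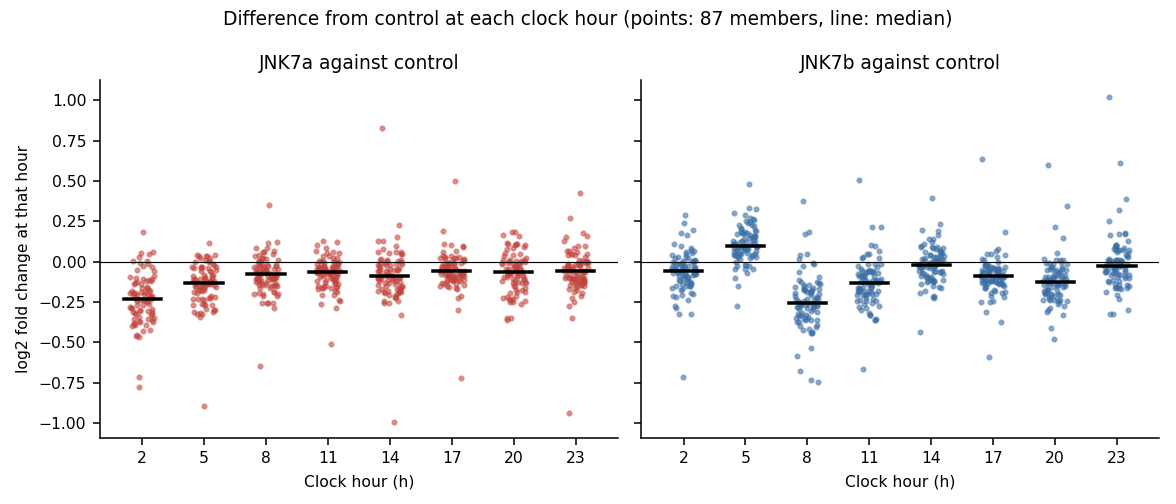
Log2 fold change of each of the 87 members at each of 8 clock hours, for JNK7a against control and JNK7b against control. Points are members and the short line at each hour is their median. The median stays below 0 at all hours in JNK7a livers and lies between -0.26 at 8 h and 0.10 at 5 h in JNK7b livers.

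Ndufb4c shows this pattern in its means for each group and hour. Its mean level at 2, 5, 8, 11, 14, 17, 20 and 23 h was 195, 209, 153, 173, 166, 193, 158 and 142 TPM in JNK7b livers, 175, 188, 191, 191, 192, 181, 161 and 192 TPM in JNK7a livers, and 196, 195, 211, 201, 212, 188, 211 and 183 TPM in control livers. JNK7b livers were lowest at 8, 20 and 23 h and near or above control livers at 2, 5 and 17 h. Ndufaf6, a complex I assembly factor, was at 21.4, 20.8, 19.5, 21.9, 19.7, 18.9, 20.6 and 17.4 TPM in JNK7b livers, 20.1, 16.7, 21.0, 20.9, 21.5, 20.1, 24.0 and 23.8 TPM in JNK7a livers, and 18.4, 15.7, 20.2, 22.2, 24.6, 26.3, 23.3 and 23.0 TPM in control livers at the same hours. Ndufaf6 was highest at 17 h in control livers and between 17.4 and 21.9 TPM at all hours in JNK7b livers. The order of the groups therefore turned over the day for Ndufaf6, with JNK7b livers above control livers at 2 and 5 h and below them from 14 to 23 h.

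**Figure D4:**
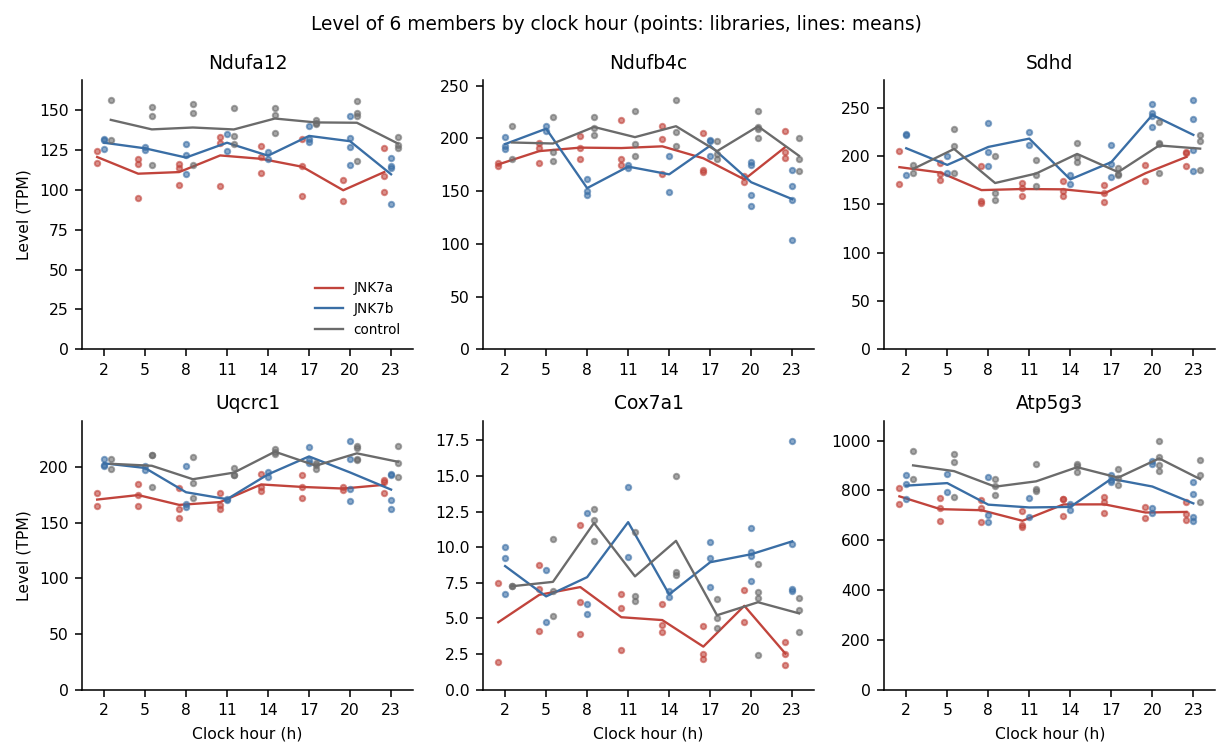
TPM at 8 clock hours of Ndufa12, Ndufb4c, Sdhd, Uqcrc1, Cox7a1 and Atp5g3 in JNK7a, JNK7b and control livers; points are libraries and lines join the means of a group. JNK7a is below control for Ndufa12 and Atp5g3 at all hours, and Ndufb4c in JNK7b livers is low at 8, 20 and 23 h.

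A 24 h rhythm, tested by a cosine of 24 h within each group, was called for 28 members in JNK7a livers, 4 in JNK7b livers and 8 in control livers. The same test called 3774 of 14398 genes in JNK7a livers, 26.2%, 2445 in JNK7b livers, 17%, and 3405 in control livers, 23.6%. The counts of members per complex in JNK7a livers were 17 in complex I, 1 in complex II, 3 in complex III, 2 in complex IV, 1 in complex V and 4 among the assembly factors, with peaks from 12.2 to 21.8 h. Without the libraries unlike their group the counts were 29 in JNK7a livers, 4 in JNK7b livers and 8 in control livers. Of 6 endothelial markers, the 24 h rhythm was called for 6 in JNK7a livers, with peaks from 2.44 to 4.26 h, and for 0 in JNK7b and 0 in control livers, with 1 in JNK7b livers and 2 in control livers at an unadjusted p below 0.05. The part of these cells in the rhythms of the members was not tested. Differences between groups in the 24 h rhythm were tested directly and called for 0 members in edgeR, DESeq2 and limma voom in all 3 comparisons, with 2 members at an unadjusted p below 0.05 for JNK7a against control, 3 for JNK7b against control and 7 for JNK7b against JNK7a. Without the libraries unlike their group all 3 counts were 0 as well. Of all genes 1 was called for JNK7a against control, 0.00695%, 0 for JNK7b against control, 0%, and 0 for JNK7b against JNK7a, 0%. The different counts per group are therefore not shown to be differences between groups.

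The rhythms of single members were shallow. Under every alternative and omission run, 4 of 28 calls held in JNK7a livers, 1 of 4 in JNK7b livers and 4 of 8 in control livers. The assembly factor gene Ndufaf4 was called in every group, with mean levels at 2, 5, 8, 11, 14, 17, 20 and 23 h of 30.0, 20.0, 21.2, 18.7, 28.4, 27.8, 27.5 and 28.3 TPM in JNK7a livers, 22.7, 23.5, 20.7, 17.5, 25.2, 30.2, 28.6 and 23.8 TPM in JNK7b livers and 28.1, 20.7, 21.8, 20.9, 25.6, 27.7, 28.7 and 28.3 TPM in control livers. Each group was low from 5 to 11 h and higher from 14 to 20 h. The fitted peak of Ndufaf4 was at 19.1 h in JNK7a livers (peak-to-trough fold 1.67, edgeR adjusted p = 1.0e-05), 18.6 h in JNK7b livers (1.54, edgeR adjusted p = 0.00017) and 19.3 h in control livers (1.51, edgeR adjusted p = 0.00012). Sdhd and Atp5a1 were also called in every group, with peaks from 19.9 to 22.6 h and peak-to-trough folds of 1.14 to 1.18. Ndufs1 was called in JNK7b livers (peak 22.4 h, edgeR adjusted p = 0.0108) and control livers (peak 20.1 h, edgeR adjusted p = 6.9e-05). In JNK7a livers, Ndufb2 (peak 12.8 h, fold 1.37, edgeR adjusted p = 0.0011) and Uqcrq (peak 13.0 h, fold 1.42, edgeR adjusted p = 0.0029) peaked earlier in the day, and Cox7a2l, Ndufb10 and Ndufaf1 at 14.6 to 16.6 h. In control livers Ndufaf6 had the smallest p, with a peak at 16.6 h and a fold of 1.54 (edgeR adjusted p = 2.1e-05), and Uqcrc2, Cox7a2l and Ndufaf1 were the other called members.

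A component of 12 h, with 2 peaks a day, was tested beside the 24 h rhythm within each group. A difference between the hours 2, 5, 14 and 17 and the hours 8, 11, 20 and 23 also enters this component. The single-hour calls of all genes for JNK7b against control lay mainly at the latter hours, as given above, and the 2 readings were not told apart. In JNK7b livers the 12 h component was called for 33 of 87 members, against 1958 of 14398 genes, 13.6%. In JNK7a livers it was called for 0 members, with 6 at an unadjusted p below 0.05, in edgeR, DESeq2 and limma voom, against 15 genes, 0.104%. In control livers it was called for 0 members in edgeR and limma voom and 1 in DESeq2, with 6 at an unadjusted p below 0.05, against 78 genes, 0.542%. Without JNK7b 5 h replicate 2 and control 8 h replicate 3 the count in JNK7b livers was 29. By complex, the 33 members were 14 of 37 in complex I, 1 of 4 in complex II, 5 of 8 in complex III, 7 of 13 in complex IV, 5 of 17 in complex V and 1 of 8 assembly factors. Of these, 32 peaked between 3.19 and 4.54 h and again 12 h later, and Sdhd peaked at 9.84 h (amplitude 0.09 on the log2 scale, edgeR adjusted p = 0.0226). Hepatocyte markers had a 12 h component in JNK7b livers too: 3 of 7 were called and 6 of 7 were at an unadjusted p below 0.05. Those called had amplitudes of 0.26 to 0.38 on the log2 scale and peaks from 3.58 to 3.93 h, within the range of the members. In JNK7a livers 0 of 7 hepatocyte markers were called, with 0 at an unadjusted p below 0.05, and in control livers 0 of 7, with 1. Their part in the values of the members was not tested. The sum of all 87 members at 2, 5, 8, 11, 14, 17, 20 and 23 h averaged 23847, 24842, 22663, 22920, 22634, 24470, 23481 and 21650 TPM in JNK7b livers. It was highest at 5 and 17 h.

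Uqcrc1, the core protein of complex III, illustrates the 12 h component. Its mean level at 2, 5, 8, 11, 14, 17, 20 and 23 h was 203, 199, 177, 171, 193, 209, 195 and 180 TPM in JNK7b livers, 171, 175, 166, 169, 184, 182, 181 and 184 TPM in JNK7a livers and 203, 201, 189, 195, 214, 201, 212 and 205 TPM in control livers. Uqcrc1 in JNK7b livers was high at 2 and 5 h and again at 17 h, and low at 8, 11 and 23 h. The amplitude of Uqcrc1 in JNK7b livers was 0.17 on the log2 scale, a peak-to-trough fold of 1.26, with a peak at 3.51 h (edgeR adjusted p = 0.00014). Ndufb4c had an amplitude of 0.28 and a fold of 1.47 (peak 3.70 h, edgeR adjusted p = 5.4e-05), and Ndufb4 an amplitude of 0.27 (peak 3.56 h, edgeR adjusted p = 0.0012). Cox4i1 had an amplitude of 0.19 (peak 3.52 h, edgeR adjusted p = 0.0018) and Uqcrc2 an amplitude of 0.14 (peak 3.84 h, edgeR adjusted p = 0.00084). Ndufa2, Ndufa9 and Ndufa10 followed with amplitudes of 0.16 to 0.22. Each phase of a 12 h component was sampled at 2 clock hours only, 2 and 14 h, 5 and 17 h, 8 and 20 h or 11 and 23 h.

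The difference of the 12 h component between groups was tested after it had been seen in JNK7b livers. For JNK7b against control it was called for 1 member, Ndufb4c (edgeR adjusted p = 0.00773), with 14 members at an unadjusted p below 0.05, against 450 of 14398 genes, 3.13%. For JNK7b against JNK7a it was called for 3 members, Uqcrc1 (edgeR adjusted p = 0.00527), Ndufb4c (edgeR adjusted p = 0.00527) and Ndufb4 (edgeR adjusted p = 0.0316), with 35 at an unadjusted p below 0.05, against 579 genes, 4.02%. For JNK7a against control 0 members were called in edgeR, DESeq2 and limma voom, with 2 at an unadjusted p below 0.05, and 0 of all genes, 0%. Without the libraries unlike their group the count was again 1 for JNK7b against control, 3 for JNK7b against JNK7a and 0 for JNK7a against control. For the other members called in JNK7b livers a difference from the other groups in the 12 h component is therefore not shown. The sum of the set at 2, 5, 14 and 17 h averaged 23990 TPM in JNK7b livers, 22220 TPM in JNK7a livers and 24876 TPM in control livers. At 8, 11, 20 and 23 h it averaged 22642 TPM in JNK7b livers, 21286 TPM in JNK7a livers and 24276 TPM in control livers. At the first 4 of these hours 70 of 87 members had the higher mean in JNK7b livers, 78 in JNK7a livers and 71 in control livers, with a median difference of 6.15% in JNK7b livers, 4.23% in JNK7a livers and 2.36% in control livers. No member's libraries were apart between these sets of hours in any group.

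**Figure D5:**
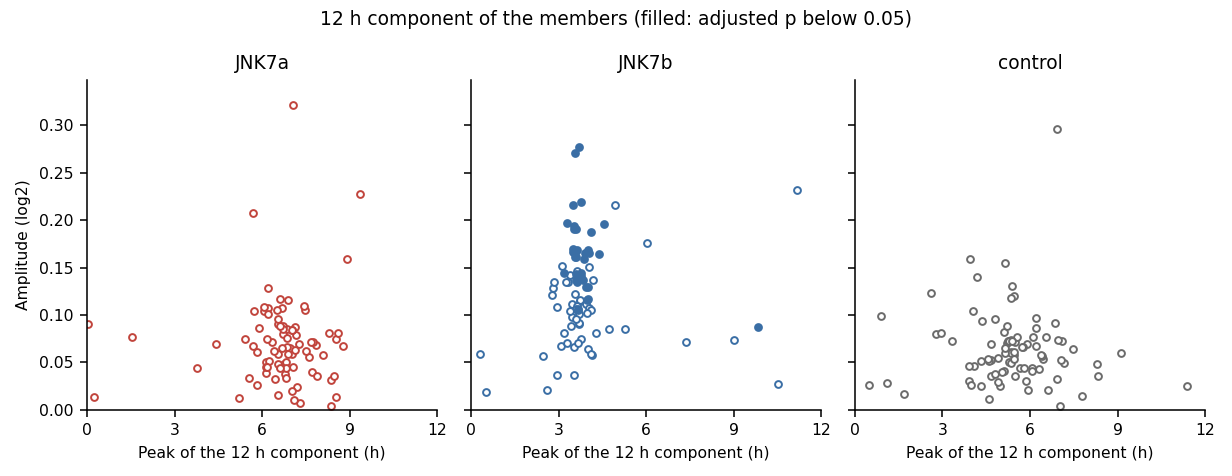
Amplitude (log2 scale) of the 12 h component of each of the 87 members against the hour of its first peak (0 to 12 h), for JNK7a, JNK7b and control livers; filled points have an edgeR adjusted p below 0.05. Called members appear in JNK7b livers alone, 32 of 33 with peaks between 3.19 and 4.54 h and Sdhd at 9.84 h.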

How the data were processed

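Paired reads of polyadenylated liver RNA were trimmed with cutadapt and quantified with Salmon against mm10, per the submitters' processing notes, without stated versions. The authors deposited estimated counts per gene and TPM for 69 libraries. TPM, which keeps no depth, was used for levels and sums, and counts for tests. Of 55487 table lines, 234 shared a symbol and were summed, giving 55367 symbols. Counts were rounded, filtered with filterByExpr and normalised by TMM, which left 14398 genes. edgeR 4.0.16 (R 4.3.3) fitted 1 coefficient for each group and clock hour (45 residual degrees of freedom), and comparisons weighted the 8 hours equally. Cosines of 24 h and of 12 h were fitted within groups (60 and 54 residual degrees of freedom). A call is a Benjamini-Hochberg adjusted p below 0.05 over all genes. DESeq2 1.42.0 and limma 3.58.1 served as alternatives, limma also on log2(TPM + 1) and log2(TPM + 0.1). The tests were checked on simulated data. The members, lists and alternatives were chosen with earlier results of these data known. Full statistics are given, for each complex and comparison, for the 4 or fewer called members of smallest p, for called members that go against the others of their complex, isoform families, up to 8 rhythmic members for each test and the most expressed member of each complex. Replicate numbers did not pair the samples. The 69 pairs of replicates differed by more than sampling noise (chi-square per degree of freedom 22.5 to 268). Some results are not reported here.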

Additional observations from a re-analysis of the deposited data

Results flagged for a closer look

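The difference between JNK7b and control livers was called as dependent on the clock hour for Ndufb4c (edgeR adjusted p = 0.0449) and Ndufaf6 (adjusted p = 0.00771). That between JNK7b and JNK7a livers was so called for Ndufb4c (adjusted p = 0.0232) and Ndufaf6 (adjusted p = 0.0301). The tests called 1.72% of all genes for JNK7b against control and 2.19% for JNK7b against JNK7a. Without the libraries unlike their group, and also with no filter, neither test called a member. The 12 h component differed between JNK7b and control livers for Ndufb4c (edgeR adjusted p = 0.00773), against 3.13% of all genes. This call was lost when some single clock hours were left out. The component differed between JNK7b and JNK7a livers for Ndufb4 (adjusted p = 0.0316), Ndufb4c (adjusted p = 0.00527) and Uqcrc1 (adjusted p = 0.00527), against 4.02% of all genes. Ndufb4 and Ndufb4c share reads and are not independent of each other. In groups of 4 libraries at 1 hour, 24 sums of the members or of the mitochondrially encoded subunits were tested for a library far from the others, and 0 were found. Groups with fewer libraries at an hour were not tested.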

How the results depend on the processing

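The counts of called members depended on the scaling, the filter and single hours. Where no share of all genes is given beside a count below, the count describes the members only. Whether all genes moved alike in that fit is not given here. On log2(TPM + 1) and log2(TPM + 0.1), limma called 72 members lower for JNK7a against control, 0 higher for JNK7b against control, and 35 higher and 0 lower for JNK7b against JNK7a. In these fits 16.8% and 17.1% of all genes were lower for JNK7a against control, and 14.4% and 14.7% higher for JNK7b against JNK7a. The same fits called the 24 h rhythm for 10 members in JNK7a livers and 1 in JNK7b livers, the 12 h component in JNK7b livers for 18 and 16, and group by clock hour for 1 (JNK7b against control) and 0 (JNK7b against JNK7a). With TPM + 0.1 the 24 h rhythm was called for 5 members in control livers. With no filter, JNK7b against control had 9 lower and 0 higher, JNK7b against JNK7a 5 higher and 0 lower, both tests of group by clock hour 0, the 24 h rhythm in control livers 5 and the 24 h difference of JNK7b against control 1. DESeq2 called a 12 h component for 1 member in control livers and a 12 h difference for 3 members (JNK7b against control) and 8 (JNK7b against JNK7a). A fit of only the 2 groups compared called 2 lower for JNK7b against JNK7a. Without both libraries unlike their group, an alternative added after the data were seen, this count was 3 and both tests of group by clock hour called 0.

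Leaving out a clock hour moved JNK7b against control lower to 31 (without 5 h), 7 (8 h), 5 (11 h), 10 (17 h) and 8 (20 h), and higher to 2 (8 h). For JNK7b against JNK7a, higher moved to 5 (without 2 h) and 6 (5 h), and lower to 0 (8 h), 1 (11 h), 3 (17 h), 1 (20 h) and 0 (23 h). The 12 h component in JNK7b livers moved to 17 (without 2 h), 16 (11 h), 20 (14 h), 13 (17 h) and 15 (23 h). Its difference moved to 3 (2 h), 0 (5 h), 0 (8 h) and 0 (17 h) for JNK7b against control, and to 1 (14 h) and 1 (23 h) for JNK7b against JNK7a. The 24 h rhythm moved to 16 (5 h), 47 (8 h), 10 (17 h) and 15 (23 h) in JNK7a livers, 2 (11 h) in JNK7b livers and 5 (17 h) in control livers, and its difference for JNK7b against control to 1 (8 h).

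Without 1 library at a time (69 fits), lower for JNK7a against control ranged from 26 (without control 2 h replicate 1) to 46 (control 2 h replicate 2), lower for JNK7b against control from 11 (control 14 h replicate 3) to 24 (control 2 h replicate 2), and higher from 1 to 2. For JNK7b against JNK7a, higher ranged from 8 to 10 and lower from 1 (JNK7b 14 h replicate 1) to 5. The 12 h component ranged from 23 to 40 in JNK7b livers and from 0 to 1 in control livers, its difference from 1 to 4 (control 2 h replicate 1) for JNK7b against control and from 2 to 7 (JNK7a 2 h replicate 1) for JNK7b against JNK7a, and the 24 h rhythm from 21 to 41 in JNK7a livers, 3 to 5 in JNK7b livers and 6 to 15 (control 2 h replicate 1) in control livers. The causes were not tested.

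Same-numbered replicates of different groups did not deviate together (62 pairs, median correlation -0.01, range -0.21 to 0.11). With the replicate number as a block, the calls were 26 lower for JNK7a against control, 18 lower for JNK7b against control, and 5 higher and 3 lower for JNK7b against JNK7a. Under every alternative and omission run, 17 of 37 calls held for JNK7a against control, 5 of 17 for JNK7b against control, 4 of 15 for JNK7b against JNK7a and 4 of 33 for the 12 h component in JNK7b livers (Ndufb4c, Uqcrc1, Ndufb4 and Cox4i1), and no called value changed sign. For the 24 h rhythm, 4 of 28 calls held in JNK7a livers, 1 of 4 in JNK7b livers and 4 of 8 in control livers. The median of the members minus that of all genes for JNK7b against JNK7a, 0.03 and with no test, was -0.00157 without clock hour 5.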
